A study of Homo sapiens with 24 samples.

Results

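Zinc finger genes of chromosome 19 were defined by name and place as every gene of the count tables that lies on chromosome 19 and whose symbol is ZNF followed only by digits. The rule found 241 of 58735 genes, beside 236 ZNF genes of the same name rule on other chromosomes and 2718 other genes on chromosome 19. Of the 241, 240 were protein coding and 1, ZNF781, was a transcribed pseudogene. Most proteins of this family bind DNA through arrays of C2H2 zinc fingers and carry a KRAB domain, which recruits the corepressor TRIM28 and with it the histone methyltransferase SETDB1, so that H3K9me3 and DNA methylation are laid down at the bound sites, many of them retroelements. The genes arose by repeated tandem duplication, stand in clusters on both arms of the chromosome, and their own gene bodies are themselves known to carry heterochromatin marks. The promoters of several members are known to be methylated in tumours.

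Expression was measured by RNA-seq in HCT116, a colorectal carcinoma line, in 24 libraries that fall into 8 groups of 3. All groups carried the plant F-box protein OsTIR1 under a doxycycline-inducible promoter. WT cells had no further change, UHRF1-AID cells carried an auxin-inducible degron on UHRF1 (the cofactor that brings DNMT1 to newly replicated DNA), DNMT1-AID cells carried it on DNMT1 (the maintenance DNA methyltransferase), and UHRF1-AID/DNMT1-AID cells, the compound line, carried it on both. Each line was sampled before auxin (day 0) and after 4 days in 500 µM auxin with 2 µg/mL doxycycline (day 4), which followed 1 day in doxycycline with the auxin antagonist auxinole at 20 µM, and WT cells received the same treatment. The study's methods state that biological replicates came from several clones of each degron line, while the labels do not tie a replicate number to a clone.

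Library totals lay between 15824804 and 25073821 counts, and the members together took between 0.0897% and 0.132% of them. By the headers of the count tables, 15 libraries (all of day 0, and UHRF1-AID at day 4) came from 1 folder and 9 (the rest of day 4) from another, and ERCC spike-in sequences had counts in the latter alone. Folder and line therefore cannot be told apart in UHRF1-AID against WT or against DNMT1-AID at day 4, nor folder and day in WT, DNMT1-AID and the compound line, whereas the other comparisons of 2 groups lie within a folder. The differences of day effects between a degron line and WT use libraries of both folders in each line. The degron acts on protein, so the RNA of UHRF1 and DNMT1, themselves genes of chromosome 19, is no check of the depletion. UHRF1 was at 25.2 ± 8.1 CPM (counts scaled to library size, with TMM factors over all libraries; SD, n = 3) in WT and 52.7 ± 26.3 in UHRF1-AID at day 4, and DNMT1 at 30.9 ± 12.1 in WT and 15.2 ± 1.9 in DNMT1-AID. Within groups some libraries stood apart. By the chi-square of counts per degree of freedom, WT replicates 1 and 2 at day 0 differed by 3.52 from each other and by 50.1 and 53.7 from replicate 3, DNMT1-AID replicates 1 and 2 at day 0 by 11.2 from each other and by 47.6 and 59.2 from replicate 3, and the UHRF1-AID libraries at day 4 by 21.5 to 47.1, against at most 18.9 in the other groups. At day 4 the 8 summed markers of colorectal epithelium lay between 6995 and 7182 CPM (WT), 5632 and 6821 CPM (UHRF1-AID), 7129 and 8157 CPM (DNMT1-AID) and 5009 and 5701 CPM (the compound line). The 3 leukocyte markers summed to between 0.06 and 0.18 CPM, 0.60 and 1.36, 0.24 and 0.59, and 1.20 and 1.66 in the same order. The 3 fibroblast markers summed to between 3.32 and 8.54 CPM, 4.02 and 11.2, 9.03 and 13.6, and 15.6 and 19.7, again in that order. Summed leukocyte markers were thus above WT in every degron library, and summed fibroblast markers in every DNMT1-AID and compound library. The epithelial sum was below WT in every UHRF1-AID and compound library, though the single markers did not fall together. The 6 epithelial markers tested had median log2 fold changes of -0.002 in UHRF1-AID and 0.06 in the compound line, with 1 called higher and 0 lower in each. The part of these markers in the results was not tested.

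The sequence of the members reflected the family. A KRAB-like box was found in the open reading frames of 197 of 240 assessed members (82.1%), and the median protein held 12 C2H2 fingers, with a range of 1 to 39. Their transcripts had a median GC content of 42.4%, against 48.7% over all protein-coding genes. Promoter windows of 300 bases (250 before and 50 after the start) were matched by symbol for 210 members in RefSeq (GRCh38.p14), and held a median of 20 CpG dinucleotides against 14 over 27305 promoters. At least 1 CG was present in all 210 member windows and in 95.8% of all windows. The 250 bases before the start are printed for 4 members: ZNF772, ZNF134 and ZNF296, which were called higher in degron cells, and ZNF154, which stayed near 0 throughout. Capitals mark each CG, the dinucleotide that DNMT1 methylates, and the sequences run along the strand of the gene (chr19:57477567-57477816, minus strand, for ZNF772; chr19:57613992-57614241, plus strand, for ZNF134; chr19:45076479-45076728, minus strand, for ZNF296; and chr19:57709205-57709454, minus strand, for ZNF154).
ZNF772: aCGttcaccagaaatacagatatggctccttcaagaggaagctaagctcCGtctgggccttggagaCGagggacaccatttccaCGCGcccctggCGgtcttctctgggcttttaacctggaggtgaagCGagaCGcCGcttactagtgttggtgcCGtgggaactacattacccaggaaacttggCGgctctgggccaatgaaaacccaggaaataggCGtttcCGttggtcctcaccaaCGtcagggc
ZNF134: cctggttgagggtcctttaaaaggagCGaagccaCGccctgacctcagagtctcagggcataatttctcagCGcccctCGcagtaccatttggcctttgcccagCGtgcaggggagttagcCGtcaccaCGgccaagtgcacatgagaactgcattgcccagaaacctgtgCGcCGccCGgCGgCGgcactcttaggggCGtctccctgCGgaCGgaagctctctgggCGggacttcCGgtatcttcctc
ZNF296: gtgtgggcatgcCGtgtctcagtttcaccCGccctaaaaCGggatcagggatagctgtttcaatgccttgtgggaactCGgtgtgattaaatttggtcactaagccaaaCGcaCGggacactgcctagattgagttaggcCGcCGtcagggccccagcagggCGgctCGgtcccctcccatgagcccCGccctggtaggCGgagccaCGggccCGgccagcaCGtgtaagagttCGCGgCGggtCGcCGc
ZNF154: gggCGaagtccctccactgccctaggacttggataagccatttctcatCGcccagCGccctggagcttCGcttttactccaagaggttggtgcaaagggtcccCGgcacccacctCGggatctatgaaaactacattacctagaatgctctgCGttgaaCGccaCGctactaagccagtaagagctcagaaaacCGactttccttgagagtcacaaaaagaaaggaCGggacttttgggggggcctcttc
The printed stretches held 14, 17, 20 and 11 CpG in that order. ZNF114, the member called lower, had no window in the table. Called and silent members both held CpG here, and no methylation was measured in these libraries.

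Many members of the family were silent in these cells. At or under 3 counts in each of the 24 libraries were 79 of 241 members (32.8%), against 21.9% of all 19831 protein-coding genes and 26 of 236 ZNF genes on other chromosomes, and 55 of them had no count anywhere. A mean of at least 1 CPM was reached by 125 to 133 members in the 8 groups. Silent members held a median of 17 promoter CpG and those with a mean of at least 1 CPM over all libraries held 22. A KRAB-like box was found in 68 of 78 assessed silent members (87.2%) and in 99 of these 127 expressed members (78.0%). At this depth 3 counts correspond to 0.184 CPM in WT libraries at day 4, so low expression under that level was not detectable.

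Levels differed along the chromosome. Ordered by start, with a new cluster wherever the next start lay more than 1 Mb on, the members formed 9 clusters and 9 isolated genes. On the p arm, cluster 1 (ZNF554 to ZNF77) held 5 members, cluster 2 (ZNF557 to ZNF846) 15, cluster 3 (ZNF653 to ZNF791) 25 and cluster 4 (ZNF101 to ZNF254) 37. On the q arm, cluster 5 (ZNF302 to ZNF792) held 5, cluster 6 (ZNF565 to ZNF573) 25, cluster 7 (ZNF575 to ZNF296) 24, cluster 8 (ZNF175 to ZNF331) 39 and cluster 9 (ZNF628 to ZNF446) 57. Cluster 4, nearest the centromere with starts from 19668796 to 24033405 (hg38), held the largest share of silent members: 23 of its 37 members were at or under 3 counts in all 24 libraries, its median promoter held 10 CpG, and its median GC content was 37.2%. In clusters 6, 3, 8 and 9 the silent members were 13 of 25, 10 of 25, 13 of 39 and 13 of 57. In clusters 1, 2, 5 and 7 they were 1 of 5, 2 of 15, 0 of 5 and 3 of 24. Cluster 9, at the end of the q arm, gave the largest summed level in WT at day 0, at 355.8 ± 29.6 CPM (SD, n = 3), whereas cluster 4 gave 79.2 ± 2.2 CPM.

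**Figure D1:**
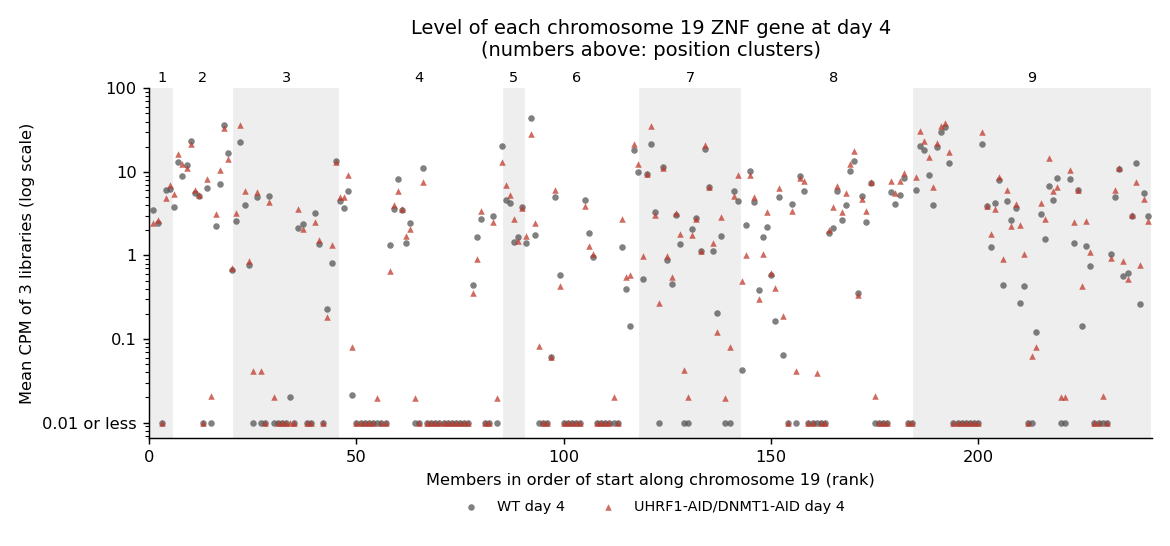
Mean CPM (log scale, values at or under 0.01 drawn at 0.01) of each of the 241 members at day 4, in order of start along chromosome 19, in WT (circles) and UHRF1-AID/DNMT1-AID (triangles). Numbers and shading mark the 9 clusters; the row of points along the base is densest in cluster 4, and most pairs of symbols lie close together.

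Compared per kilobase of summed exon length, the highest mean over all libraries in each cluster was that of ZNF77 (2.52 CPM per kb), ZNF358 (6.97), ZNF627 (6.68), ZNF14 (2.73), ZNF302 (1.29), ZNF146 (17.5), ZNF428 (18.5), ZNF480 (2.04) and ZNF581 (21.9), from cluster 1 to 9. ZNF581, ZNF428 and ZNF146, a gene whose product consists almost entirely of fingers, were the top 3 of these, and none of the 3 had a KRAB-like match. Other genes overlap 34.4% of the exon bases of ZNF358, 27.6% of ZNF428 and 23.4% of ZNF581, and the use of strand in counting is not given in the sources used here, so part of these levels can belong to the overlapping genes.

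At day 0 no member was called in any degron line against WT. A member was called where its Benjamini-Hochberg adjusted p in edgeR's quasi-likelihood test, fitted over all genes, lay under 0.05 and its log2 fold change was above 1 or below -1. Over all genes the share called was 0% for UHRF1-AID, 0.00723% for DNMT1-AID and 1.31% for the compound line, and the members tested were 145, 143 and 145. At an unadjusted p under 0.05 there were 3, 4 and 24 members (edgeR), beside 512 of 13894, 711 of 13833 and 2836 of 14023 genes tested. DESeq2 called 0, 0 and 1 members. The member with an adjusted p under 0.05 in the compound line was ZNF607, at 2.63, 3.17 and 2.98 CPM in WT and 4.64, 6.26 and 5.44 CPM in UHRF1-AID/DNMT1-AID, a log2 fold change of 0.87 ± 0.19 (SE; adjusted p = 0.045, edgeR). All 3 libraries of the compound line were above the WT libraries before auxin was added. Without WT replicate 3, which stood apart at day 0, 0, 0 and 1 members were called (edgeR), the last of them lower.

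At day 4 few members were called against WT. The filter on low counts was passed by 140 of 241 members in at least 1 of the 3 comparisons, and members that did not pass it were not tested. In UHRF1-AID 0 of 134 tested members were called higher and 1 lower, against 5.77% of all genes tested called higher and 1.22% lower. An unadjusted p under 0.05 (edgeR) was found for 32 members, beside 4608 of 13958 genes, and DESeq2 called 0 members higher and 2 lower. In DNMT1-AID 2 of 138 were called higher and 0 lower, against 2.29% and 0.28%, and DESeq2 gave the same counts. There 20 members had an unadjusted p under 0.05 (edgeR), beside 3280 of 13582 genes. In UHRF1-AID/DNMT1-AID 4 of 138 were called higher and 1 lower, against 9.21% and 2.49%. The members' shares called higher were 0%, 1.45% and 2.90%, and those of the other chromosome 19 genes in the same fits were 8.25%, 4.29% and 13.5%. Nonmember genes that lie inside the same clusters were called higher in 9 of 95, 4 of 88 and 9 of 92 cases, at shares above those of the members. ZNF genes on other chromosomes were called higher in 3, 1 and 4 of 193. These counts are descriptions, and no test of the difference between gene sets was made.

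The median log2 fold change of the tested members was 0.24 for UHRF1-AID, 0.11 for DNMT1-AID and 0.22 for the compound line, against 0.03, 0.00 and 0.02 over all genes tested and 0.00, 0.12 and 0.21 over the other genes of chromosome 19. Values above 0 were found in 92 of 134, 91 of 138 and 97 of 138 members (68.7%, 65.9% and 70.3%), and in 50.2%, 63.4% and 68.1% of the other chromosome 19 genes. The members thus stood close to the other genes of chromosome 19 in DNMT1-AID and the compound line. Nonmember genes inside the clusters had medians of -0.01, -0.03 and 0.15, with 49.5%, 45.5% and 58.7% above 0. ZNF genes on other chromosomes had medians of 0.10, -0.01 and 0.01, with 59.6%, 48.7% and 51.3% above 0. The members lay above both of these sets in all 3 lines. The 3 comparisons share their WT libraries. The 95% interval of the fold change ended below a doubling (a log2 value of 1) in 90, 104 and 96 members (67.2%, 75.4% and 69.6%), against 79.8%, 85.6% and 79.8% of all genes tested. For the remaining members a doubling lay within that interval, except ZNF772 in the compound line, whose interval of 2.01 to 4.22 lay above it. Without the minimum fold, an adjusted p under 0.05 was reached by 7 members for UHRF1-AID, 4 for DNMT1-AID and 26 for the compound line, of which 5, 3 and 21 were higher. These were 5.22%, 2.90% and 18.8% of the members tested, against 17.4%, 7.95% and 38.2% of all genes. Leaving out WT replicate 3 raised the called members from 2 to 9 in DNMT1-AID and from 5 to 12 in the compound line, and leaving out replicate 3 of the compound line raised them to 9, whereas without DNMT1-AID replicate 1 or WT replicate 2 none was called in DNMT1-AID.

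**Figure D2:**
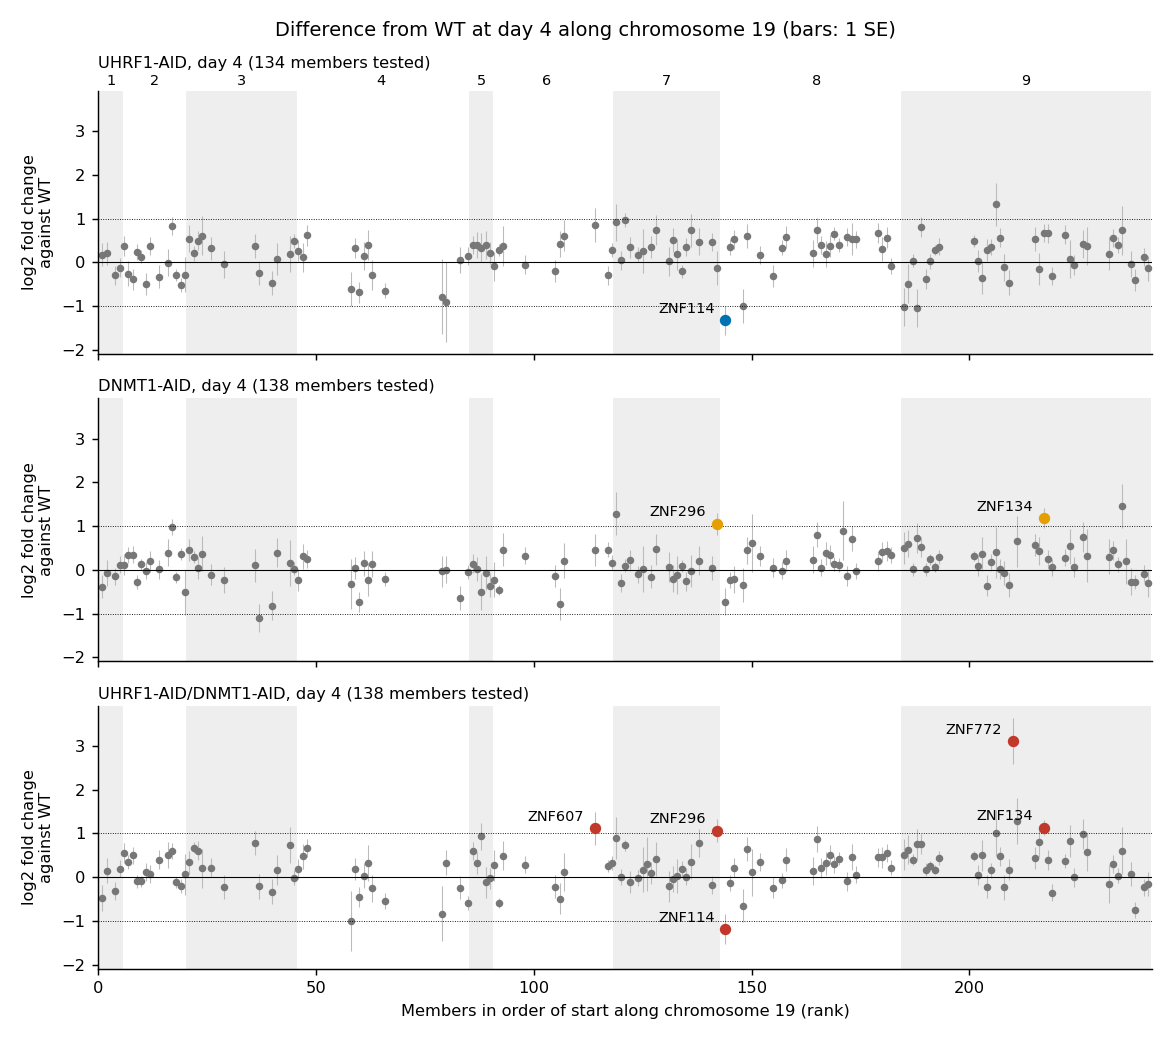
Log2 fold change against WT at day 4 (y axis, bars of 1 SE) of each tested member in order of start along chromosome 19, with UHRF1-AID at the top, DNMT1-AID in the middle and the compound line at the base. Coloured, named points are the called members; dotted lines mark 1 and -1, and most points lie between them in all 3 panels.

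ZNF772, a KRAB zinc finger gene of cluster 9 (hg38, 57466663 to 57477570, minus strand), had the largest difference. Its levels at day 4 were 0.574, 0.0602 and 0.180 CPM in WT and 2.76, 2.72 and 1.55 CPM in UHRF1-AID/DNMT1-AID. All 3 compound libraries stood above all WT libraries, by a log2 fold change of 3.11 ± 0.53 (SE; adjusted p = 8.7e-05, edgeR). In UHRF1-AID it was at 0.487, 1.80 and 0.557 CPM and in DNMT1-AID at 0.822, 0 and 0.714 CPM, ranges that overlap WT, and it did not pass the filter on low counts in those comparisons. It was near the floor in WT and passed the filter through the compound libraries, where it was high. Its p and the lack of overlap in comparisons with the compound line are therefore descriptions only. Against DNMT1-AID at day 4 the compound line was higher by 2.19 ± 0.62 (adjusted p = 0.024, edgeR). Before auxin the compound line was at 0.657, 1.34 and 1.09 CPM and WT at 0.293, 0.512 and 0.169 CPM, a log2 fold change of 1.61 ± 0.48 that missed the threshold (adjusted p = 0.11, edgeR). The compound line thus lay above WT at both days, and the change of that gap with auxin was 1.47 ± 0.83 (adjusted p = 0.26, edgeR).

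The members beside ZNF772 were not called. ZNF419, 21.0 kb further along, had a log2 fold change of 1.29 ± 0.52 in the compound line (adjusted p = 0.054, edgeR), ZNF749, 31.3 kb before it, had 0.17 ± 0.24, and ZNF773 did not pass the filter.

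ZNF134, also in cluster 9 and without a KRAB-like match, was 1 of 2 members, with ZNF296, called higher in both lines with a degron on DNMT1. Its day 4 levels were 8.10, 6.74 and 5.41 CPM in WT, 11.8, 11.6 and 9.0 CPM in UHRF1-AID, 19.2, 10.3 and 16.1 CPM in DNMT1-AID and 13.4, 15.9 and 14.6 CPM in UHRF1-AID/DNMT1-AID. Every degron library was above every WT library. The log2 fold change was 1.18 ± 0.23 in DNMT1-AID (adjusted p = 0.0076, edgeR) and 1.13 ± 0.18 in the compound line (adjusted p = 3.4e-05), and 0.67 ± 0.21 in UHRF1-AID, which was not called (adjusted p = 0.057). At day 0 WT had 7.58 to 8.22 CPM and the compound line 7.60 to 9.53 CPM, which overlap, and DNMT1-AID had 8.63, 11.8 and 8.57 CPM, just above WT (0.26 ± 0.18, adjusted p = 0.80, edgeR). The day effect in the compound line exceeded that in WT by 1.00 ± 0.23 (adjusted p = 0.0081, edgeR). Its neighbours ZNF530 (0.81 ± 0.34), ZNF211 (0.39 ± 0.22), ZNF416 (0.44 ± 0.25) and ZNF551 (-0.36 ± 0.19) were not called in the compound line. ZNF134 fell short of the call without WT replicate 2 or DNMT1-AID replicate 1 in DNMT1-AID, and without WT replicate 3 in the compound line.

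ZNF296, at the end of cluster 7, was also called in DNMT1-AID and the compound line. It was at 4.34, 2.77 and 6.25 CPM in WT, 2.87, 3.28 and 6.17 CPM in UHRF1-AID, 9.57, 8.52 and 9.68 CPM in DNMT1-AID and 9.52, 10.8 and 7.33 CPM in the compound line at day 4. DNMT1-AID and compound libraries lay above all WT libraries, while UHRF1-AID overlapped WT. The log2 fold changes were 1.06 ± 0.25 in DNMT1-AID (adjusted p = 0.021, edgeR) and 1.07 ± 0.26 in the compound line (adjusted p = 0.0043), and UHRF1-AID was lower than DNMT1-AID by 1.21 on the log2 scale (SE 0.28, adjusted p = 0.022, log2 fold change -1.21). In the compound line it already stood at 7.23, 9.93 and 8.70 CPM at day 0 against 4.63, 5.02 and 1.86 CPM in WT (1.13 ± 0.34, adjusted p = 0.12, edgeR), and its day effect there was 0.14 ± 0.17. In DNMT1-AID it was at 3.33, 2.27 and 5.96 CPM at day 0 and was called higher at day 4 (1.28 ± 0.32, adjusted p = 0.0093, edgeR). After correction for the trend of each library with GC content both differences from WT fell under the minimum fold, at 0.86 and 0.82, as did the day effect in DNMT1-AID, at 0.89. The call in DNMT1-AID against WT was also lost with all 24 libraries in 1 fit (1.05, adjusted p = 0.082, edgeR) and without WT replicate 1 or 2 or DNMT1-AID replicate 1 or 3 (0.81 to 1.04). In the compound line it was lost with length offsets (0.97) and without WT replicate 2 (0.81) or replicate 2 of the compound line (0.93).

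ZNF607 was the fourth member called higher in the compound line, with 1.02, 1.62 and 1.14 CPM in WT and 2.76, 3.99 and 1.43 CPM in the compound line at day 4 (1.12 ± 0.37, adjusted p = 0.023, edgeR). The groups overlapped, because replicate 3 of the compound line lay below the highest WT library. It was lower at day 4 than at day 0 in WT (-1.20 ± 0.27, adjusted p = 0.0082, edgeR), and its day effect in the compound line did not differ detectably from that in WT (0.20 ± 0.44, adjusted p = 0.83).

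ZNF114, an isolated KRAB member on the q arm, was the member called lower. It was at 2.36, 2.05 and 2.53 CPM in WT, 0.780, 0.740 and 1.25 CPM in UHRF1-AID, 1.29, 1.57 and 1.30 CPM in DNMT1-AID and 1.11, 0.823 and 1.07 CPM in the compound line at day 4. Every degron library was below every WT library. The log2 fold change was -1.32 ± 0.33 in UHRF1-AID (adjusted p = 0.024, edgeR), -1.18 ± 0.34 in the compound line (adjusted p = 0.0089) and -0.73 ± 0.31 in DNMT1-AID (not called, adjusted p = 0.17). Before auxin the 4 lines overlapped, between 2.47 and 4.77 CPM. In the compound line the day effect was lower than that in WT by a log2 difference of -1.43 ± 0.34 (adjusted p = 0.0096, edgeR). The call in UHRF1-AID was lost without WT replicate 1, 2 or 3 and without UHRF1-AID replicate 1, with log2 fold changes from -1.23 to -1.41.

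**Figure D3:**
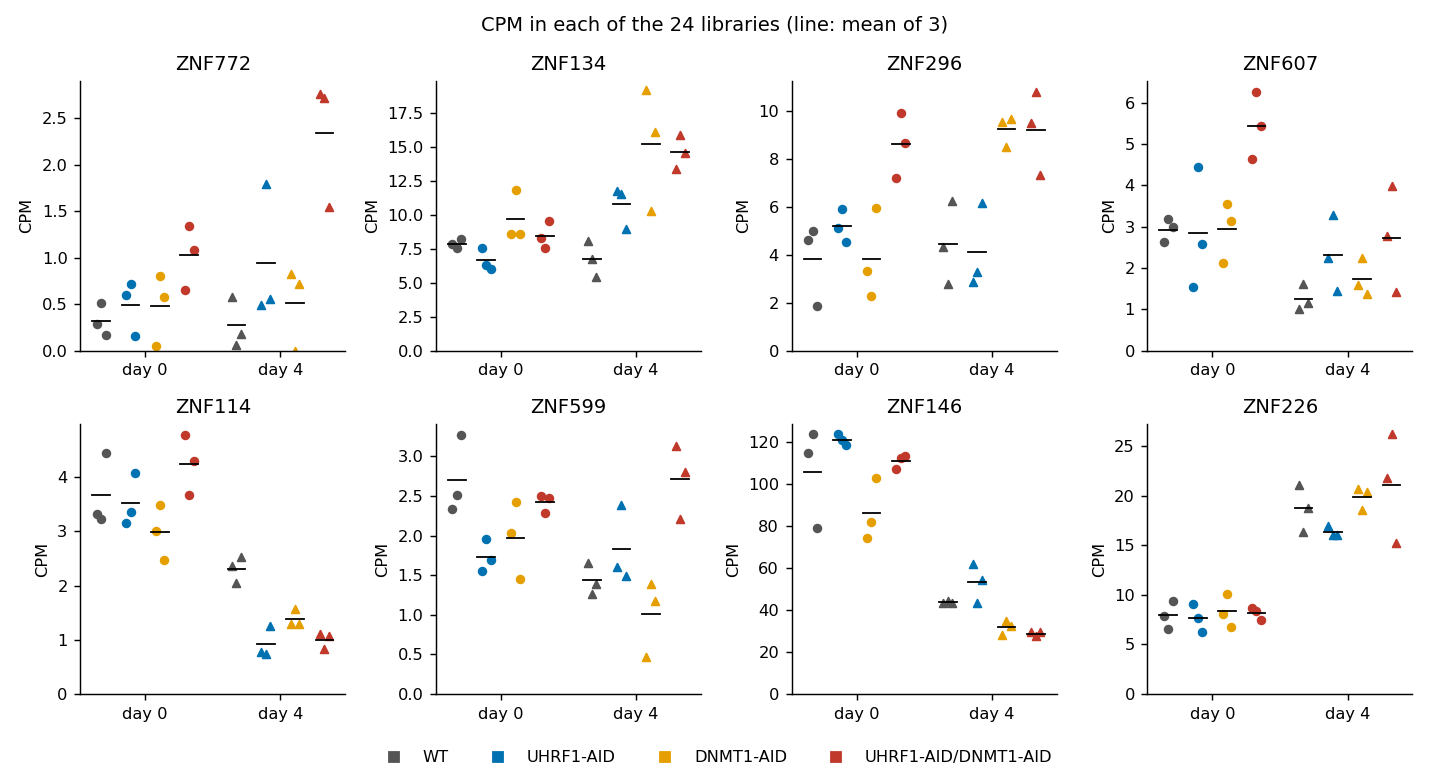
CPM of 8 members (1 panel each, linear y axis from 0) in each of the 24 libraries, by line (colour) and day (circles day 0, triangles day 4); black lines are means of 3. All degron libraries of ZNF134 lie above and those of ZNF114 below WT at day 4, ZNF772, ZNF296 and ZNF607 are already high in the compound line at day 0, and ZNF146 and ZNF226 move between the days in all 4 lines.

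The lines differed from each other at few members. UHRF1-AID/DNMT1-AID against DNMT1-AID at day 4, both in the same folder, gave 2 of 142 members higher, ZNF772 and ZNF599, and 0 lower (5.74% and 1.10% of all genes). DESeq2 also called 2 and 0. An unadjusted p under 0.05 (edgeR) was found for 16 members, beside 4687 of 14246 genes. ZNF599, a KRAB member of cluster 5, was at 0.470, 1.39 and 1.17 CPM in DNMT1-AID and 3.13, 2.21 and 2.80 CPM in the compound line, without overlap, a log2 fold change of 1.44 ± 0.38 (adjusted p = 0.011, edgeR). Against WT (1.66, 1.26 and 1.38 CPM) the compound line was higher by 0.94 ± 0.31, under the minimum fold, and its day effect exceeded that in WT by 1.06 ± 0.34 (adjusted p = 0.044, edgeR). UHRF1-AID against DNMT1-AID, which crosses the folders, gave 1 of 139 higher, ZNF875 (1.18 ± 0.31), and 4 lower, ZNF865 (-1.79 ± 0.29), ZNF628 (-1.54 ± 0.28), ZNF296 and ZNF579 (-1.11 ± 0.32), against 2.88% and 2.43% of all genes. The day effect in DNMT1-AID differed from that in WT for 0 of 146 members by edgeR (0.139% of all genes) and for 1 by DESeq2. At an unadjusted p under 0.05 (edgeR) there were 9 members, beside 1829 of 14370 genes. The day effect in the compound line differed from that in WT for 3 of 146 (5.41% of all genes), ZNF134, ZNF599 and ZNF114.

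Silent members mostly stayed silent. At or under 3 counts in each WT library at day 4 were 92 members. Of these 92, the members over 3 counts in all 3 libraries of the degron line were 2 for UHRF1-AID (2.17%), 0 for DNMT1-AID and 3 for the compound line (3.26%). Over all protein-coding genes the shares were 8.36%, 2.48% and 11.8% of 6698, and over the other protein-coding genes of chromosome 19 they were 51, 25 and 67 of 417 (12.2% in UHRF1-AID and 16.1% in the compound line). ZNF genes on other chromosomes gave 1, 0 and 3 of 38.

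The members concerned had few counts. ZNF546 had 6, 4 and 6 counts in UHRF1-AID and 12, 11 and 5 in the compound line, which is at least 1.42-fold and 3.13-fold the floor of 3 counts per WT library. ZNF814 had 4, 10 and 12 counts in UHRF1-AID and 9, 8 and 4 in the compound line, at least 2.32-fold and 2.35-fold the floor. ZNF541, which is not in a cluster, had 11, 7 and 6 counts in the compound line, at least 2.67-fold the floor. All 3 reached mean levels of 0.26 to 0.58 CPM, and the highest WT count was 3 for ZNF546 and ZNF814 and 2 for ZNF541. ZNF546 and ZNF814 passed the filter on low counts in the fit of the compound line and WT at both days. Low WT counts at day 4 thus do not show that they were silent before auxin. Their day effects in the compound line did not differ detectably from those in WT (0.87 ± 0.75 and 0.90 ± 0.77, adjusted p = 0.47 for both, edgeR). With a floor of 10 counts, 0, 0 and 1 of 101 members passed, against 5.38%, 1.57% and 7.66% of protein-coding genes. The members without a count in any of the 3 libraries of a group at day 4 numbered 85 (WT), 77 (UHRF1-AID), 81 (DNMT1-AID) and 65 (the compound line). At day 0 they numbered 83, 77, 75 and 75 in the same order, and these counts are not adjusted for library totals. At or under 3 counts in every library of the group at day 4 were 38.2%, 37.3%, 37.8% and 35.7% of the members. Over all protein-coding genes the shares were 33.8%, 27.5%, 31.5% and 26.3%.

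**Figure D4:**
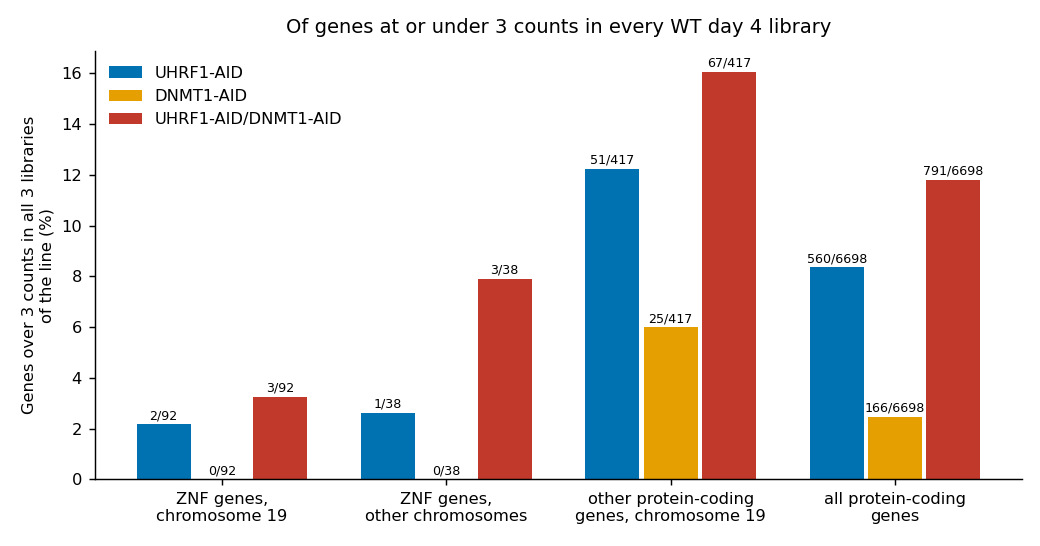
Share (%) of genes at or under 3 counts in every WT day 4 library that were over 3 counts in all 3 day 4 libraries of a degron line, by gene set (x axis) and line (colour), with the counts above each bar. Bars of the chromosome 19 ZNF genes reach 3.26% at most, and those of all protein-coding genes reach 11.8%.

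Of 9 members whose promoters are known to be methylated in tumours, 4 (ZNF382, ZNF471, ZNF582 and ZNF677) had no count in any library. ZNF331 reached 1 count, ZNF154 7 counts and ZNF671 5 counts at most in a library. ZNF671 was at 0 CPM in all WT libraries and in UHRF1-AID at day 4, and at 0, 0.242 and 0.325 CPM in DNMT1-AID, without a count in replicate 1. None of the 9 passed the filter on low counts against WT at day 4, so their differences were not tested. Their summed level at day 4 was 0.60 to 0.72 CPM in WT and 0.63 to 1.30 CPM in UHRF1-AID. It was 0.79 to 1.62 CPM in DNMT1-AID and 0.76 to 1.47 CPM in the compound line. At day 0 the sums were 1.71 to 2.36, 1.30 to 3.23, 1.14 to 2.37 and 3.15 to 3.39 CPM in the same order. ZNF132 was at 0.191, 0.181 and 0.421 CPM in WT and 1.04, 0.570 and 0.715 CPM in the compound line at day 4, and ZNF577 at 0.446, 0.542 and 0.180 CPM and 0.307, 0.190 and 0.417 CPM, so that the groups of ZNF132 did not overlap and those of ZNF577 did. The day effect of ZNF132 was not called different from that in WT. The difference was 0.91 ± 0.64 in the compound line and 1.19 ± 0.88 in DNMT1-AID (adjusted p = 0.37 and 0.54, edgeR).

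Among members with known roles in silencing, ZNF93, a repressor of LINE-1 elements, had no count in any library. ZNF91, a repressor of SVA elements, varied widely within groups, with 1.98, 1.75 and 1.20 CPM in WT and 0.123, 1.84 and 0.775 CPM in the compound line at day 4 (-0.83 ± 0.62, adjusted p = 0.32, edgeR). ZNF274, which recruits SETDB1 to the 3' ends of zinc finger genes, was at 4.14, 5.18 and 5.59 CPM in WT, 7.41, 7.46 and 7.33 CPM in UHRF1-AID, 7.86, 5.74 and 6.69 CPM in DNMT1-AID and 5.40, 5.63 and 7.09 CPM in the compound line. Its differences of 0.56 ± 0.21, 0.45 ± 0.21 and 0.30 ± 0.21 were not called (adjusted p = 0.090, 0.21 and 0.28, edgeR). The 13 genes of the KRAB corepressor machinery had median log2 fold changes against WT at day 4 of -0.04, 0.11 and 0.05 in the 3 degron lines, none was called, and their adjusted p was under 0.05 for 0, 2 and 6 (edgeR). The values ran from -0.46 (CBX5) to 1.18 (MPHOSPH8) in UHRF1-AID and from -0.53 (CBX1) to 0.68 (MORC2) in the compound line. TRIM28, on chromosome 19 itself, ranged from 464 to 983 CPM over the libraries and differed from WT at day 4 by 0.00, 0.04 and 0.05 on the log2 scale. SETDB1 differed by -0.34, -0.14 and -0.28, with adjusted p of 0.14, 0.56 and 0.094 (edgeR).

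Between day 0 and day 4 the summed level of the members went down in every line, WT included, while few single members were called. It was 1189.9, 1226.3 and 1080.9 CPM in WT at day 0 and 917.1, 891.6 and 937.6 CPM at day 4. In UHRF1-AID it was 1207.9, 1271.4 and 1237.4 CPM at day 0 and 1054.8, 979.3 and 1069.8 CPM at day 4. In DNMT1-AID it was 1048.6, 1123.0 and 1191.0 CPM at day 0 and 1013.6, 958.2 and 1007.1 CPM at day 4, and in the compound line 1223.5, 1270.8 and 1296.3 CPM and 1053.0, 1090.2 and 973.5 CPM. Day 4 sums lay below day 0 sums of the same line in all 4 lines. Without ZNF146 they were 1001.7 to 1102.6 CPM at day 0 and 847.3 to 894.3 CPM at day 4 in WT, 1084.2 to 1150.3 and 935.9 to 1015.5 CPM in UHRF1-AID, and 1116.3 to 1182.9 and 944.1 to 1062.8 CPM in the compound line, still without overlap, whereas those of DNMT1-AID overlapped (974.3 to 1088.2 and 923.4 to 985.6 CPM). With or without ZNF146, all degron libraries at day 4 lay above all WT libraries at day 4.

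Called lower at day 4 than at day 0 were 11 of 138 members in WT, 17 of 145 in UHRF1-AID, 8 of 144 in DNMT1-AID and 13 of 145 in the compound line, against 6.53%, 9.82%, 6.68% and 11.5% of all genes. Called higher were 1, 1, 2 and 6, against 5.37%, 12.1%, 8.62% and 15.1%. The lower counts thus stood near the background and the higher counts below it. Values above 0 were found in 38, 64, 63 and 56 of the tested members. Without the replicate 3 that stood apart at day 0, 12 members were called lower and 2 higher in WT, and 8 lower and 6 higher in DNMT1-AID. Median log2 fold changes were -0.28, -0.15, -0.14 and -0.19, and ZNF genes on other chromosomes had -0.31, -0.27, -0.20 and -0.37. UHRF1-AID was the line whose days lay within 1 folder. There same-numbered replicates were taken as pairs, which the labels do not state, and the fit with the replicate block called 22 members in place of 18.

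Among the clusters, the medians were lowest in cluster 4 and cluster 6 in all 4 lines. In cluster 4, 0 of 12 tested members were above 0 in WT (median -0.69), 2 of 13 in UHRF1-AID (-0.97), 0 of 13 in DNMT1-AID (-0.71) and 1 of 13 in the compound line (-0.67). The summed level of cluster 4 went from 79.2 ± 2.2 to 48.8 ± 3.2 CPM in WT and from 71.3 ± 1.7 to 46.9 ± 9.2 CPM in the compound line. In cluster 6 the medians were -0.69, -0.37, -0.60 and -0.71. The 4 nonmember genes tested inside cluster 6 also had medians below 0, at -0.75, -0.59, -0.31 and -1.04. Cluster 7 did not follow, with medians of 0.10, 0.30, 0.14 and -0.05. Cluster 8 had a median below 0 in WT alone (-0.33, 0.15, 0.01 and 0.11). In the other clusters the medians lay between -0.47 and 0.25. The difference between clusters was not tested.

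ZNF146, ZNF577 and ZNF714 were called lower in all 4 lines and ZNF226 was called higher in all 4. ZNF146 was at 115, 124 and 79.2 CPM in WT at day 0 and 43.2, 44.3 and 43.4 CPM at day 4, and in the compound line at 107, 112 and 113 CPM and 29.4, 27.4 and 29.4 CPM. No day 4 library reached a day 0 library. The log2 fold changes of ZNF146 were -1.28 ± 0.17 in WT (adjusted p = 8.0e-04, edgeR), -1.17 ± 0.14 for UHRF1-AID, -1.43 ± 0.15 for DNMT1-AID and -1.91 ± 0.08 for the compound line (adjusted p = 1.2e-12). At day 4 it was also lower in DNMT1-AID (-0.46 ± 0.12) and the compound line (-0.59 ± 0.11) than in WT, both with an adjusted p under the threshold (0.025 and 2.1e-04, edgeR) and under the minimum fold.

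ZNF226, a KRAB member of cluster 7, was at 7.90, 6.50 and 9.35 CPM in WT at day 0 and 21.0, 16.3 and 18.8 CPM at day 4. The 12 day 4 libraries of all lines lay between 15.3 and 26.2 CPM and the 12 day 0 libraries between 6.22 and 10.1 CPM, without overlap. Its log2 fold changes were 1.24 ± 0.18, 1.12 ± 0.18, 1.28 ± 0.19 and 1.41 ± 0.17 from WT to the compound line, with adjusted p from 0.0012 to 3.1e-06 (edgeR). The call in UHRF1-AID was lost without UHRF1-AID day 0 replicate 3 (0.97). ZNF714, of cluster 4, fell by 1.13, 1.86, 1.62 and 1.26 on the log2 scale, and ZNF577 by 1.62, 1.58, 1.56 and 2.72.

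In WT, ZNF121 had the smallest p of the members that fell, from 21.1, 23.5 and 18.5 CPM to 7.21, 5.90 and 8.24 CPM (-1.56 ± 0.18, adjusted p = 4.7e-04, edgeR). It was at 10.7, 13.2 and 14.3 CPM in UHRF1-AID, between 12.9 and 14.9 CPM in DNMT1-AID and 9.46, 13.2 and 9.30 CPM in the compound line at day 4, above WT in every library. The differences of 0.83 ± 0.21 in UHRF1-AID and 0.97 ± 0.18 in DNMT1-AID (adjusted p = 0.024 and 0.0033, edgeR) were under the minimum fold. The day effect of ZNF121 exceeded that in WT by 1.17 ± 0.27 in DNMT1-AID and 0.53 ± 0.24 in the compound line, neither called (adjusted p = 0.12 and 0.15, edgeR). In the compound line ZNF699 was called higher (1.38 ± 0.22) and ZNF507 lower (-1.12 ± 0.11, and -0.94 and not called with length offsets). Their day effects there did not differ detectably from those in WT (0.62, adjusted p = 0.14, and -0.53, adjusted p = 0.083, edgeR). ZNF114, ZNF724 and ZNF850 were called lower in the 3 degron lines and not in WT, where ZNF114 had -0.66 ± 0.23 (adjusted p = 0.052), ZNF850 had -0.69 ± 0.56 (adjusted p = 0.36) and ZNF724 did not pass the filter. The difference from the day effect in WT was called for ZNF114 in the compound line, as given above, and not in DNMT1-AID (-0.42, adjusted p = 0.58, edgeR). For ZNF850 it was -0.94 and -1.26 in DNMT1-AID and the compound line (adjusted p = 0.63 and 0.26), and for ZNF724 -1.37 and -1.04 (adjusted p = 0.48 and 0.46), none of them called, and it was not tested for UHRF1-AID. Exons of other genes overlap 44.8% of the exon bases of ZNF724, so its counts are uncertain.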

How the data were processed

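The deposited values are raw read counts per gene, which the authors obtained with featureCounts from trimmed reads aligned by STAR to hg38. Strand setting and the treatment of multiply aligned reads are not given in the sources used here, so counts of overlapping or near-identical zinc finger genes are uncertain. Symbols were matched for 58207 of 58735 genes. Spike-in counts were left out.

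Libraries were grouped by the labels. Members and lists were chosen with earlier results of these data known. Counts were tested with edgeR 4.0.16 in R 4.3.3 (filterByExpr, TMM, robust quasi-likelihood test, Benjamini-Hochberg adjustment over all genes tested), each fit holding the groups compared, and the fit was tested on simulated data. P-values measure the spread between these libraries. KRAB-like boxes and C2H2 fingers were counted in open reading frames of GENCODE transcripts. Members named were the called ones with the smallest p and no overlap between groups, the top one per kilobase in each cluster and fixed lists. ZNF607, ZNF599, ZNF724, ZNF850, ZNF875, ZNF865, ZNF628, ZNF579, the members over the floor and the neighbours were named after their values were seen. Same-numbered replicates deviated together (r from 0.121 to 0.227 over 3 pairs) in UHRF1-AID day 4 against day 0, and the numbers were taken as pairing there only. This pairing is an assumption, since r reached 0.231 for replicate 3 of UHRF1-AID against WT at day 4, which are different lines. Alternatives were DESeq2 1.42.0, RLE scaling, other filters, all 24 libraries in 1 fit, no minimum fold, a replicate block, length and GC offsets and leaving out each library. Floors cover counting error only.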

Additional observations from a re-analysis of the deposited data

Results flagged for a closer look

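The change between day 0 and day 4 differed between the compound line and WT for 3 members by the test of that difference (edgeR). It was 1.06 ± 0.34 (log2, SE) higher for ZNF599, 1.00 ± 0.23 higher for ZNF134 and lower for ZNF114 (-1.43 ± 0.34), with adjusted p of 0.044, 0.0081 and 0.0096. The days lie in different folders in both lines.

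A signal lay outside the gene counts: the spike-in sequences took up to 1.65% of the counts in the 9 libraries that held any and were at 0 in the other 15.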

How the results depend on the processing

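Counts of called members are small and changed with the settings. In UHRF1-AID against WT at day 4, where 1 member was called, there were 4 without a filter on low counts, 3 with all 24 libraries in 1 fit, 2 with a replicate block, 2 with DESeq2, 2 with length offsets and 7 without a minimum fold. In DNMT1-AID against WT (2 called) there were 4 without the filter and 4 without a minimum fold, and in the compound line (5 called) there were 26 without a minimum fold. Without a minimum fold the other counts were 1 for the compound line at day 0, 32, 43, 26 and 56 for day 4 against day 0 in WT, UHRF1-AID, DNMT1-AID and the compound line (12, 18, 10 and 19 called), 7 for the compound line against DNMT1-AID (2), 10 for UHRF1-AID against DNMT1-AID (5) and 5 for the difference of day effects between the compound line and WT (3). DESeq2 called 1 in the compound line at day 0. The compound line against DNMT1-AID gave 0 with at least 10 counts in every library and 1 with all libraries in 1 fit, and UHRF1-AID against DNMT1-AID gave 3 with the block. The difference of day effects between DNMT1-AID and WT (0) gave 3 without the filter, 1 with all libraries in 1 fit and 1 with DESeq2. The cause of these changes was not tested.

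Leaving out each library in turn gave 0 to 2 members in UHRF1-AID against WT at day 4, 0 to 9 in DNMT1-AID and 4 to 12 in the compound line, 0 to 1 in the compound line at day 0 and 0 in the other lines at day 0. It gave 7 to 14, 14 to 22, 9 to 14 and 17 to 24 for the day effects in WT, UHRF1-AID, DNMT1-AID and the compound line. For the compound line against DNMT1-AID the range was 1 to 2, for UHRF1-AID against DNMT1-AID 2 to 4, and for the differences of day effects 0 to 1 in DNMT1-AID and 1 to 3 in the compound line. Members over the floor of 3 counts and not in WT numbered 2 to 3, 0 to 1 and 3 to 5 in UHRF1-AID, DNMT1-AID and the compound line, and 0, 0 and 1 with a floor of 10 counts. This setting and its left-out libraries were chosen after seeing the data.

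In UHRF1-AID day 4 against day 0, the assumed pairing gave 22 members with the replicate block and 21 with the block and length and GC offsets. Over all 12 comparisons of 2 groups, this one included, r ranged from -0.620 to 0.231, and elsewhere the numbers were not taken as pairs. Apart from the changes named above the block left the other counts within 1.5 times.

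Of 338 alternative values of 24 log2 fold changes of named members, 316 kept their direction and side of the threshold, 20 lost the call and 2 changed sign. The 24 did not include ZNF607, ZNF599, ZNF875, ZNF865, ZNF628 or ZNF579, nor any difference of day effects. Both sign changes were those of ZNF296 in UHRF1-AID against WT (-0.13, not called), whose values with 1 library left out lay between -0.56 and 0.21, with 0.05 when UHRF1-AID replicate 1 was dropped. Library trends with transcript length and GC content (Spearman's rho from -0.270 to 0.290 and from -0.277 to 0.282 over 15750 genes) and low counts limit the precision for many members.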
